A study of Mus musculus with 2 samples.

Results

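The miR-135 family comprises 3 microRNA genes in the mouse, Mir135a-1, Mir135a-2 and Mir135b, which were taken by name from the 2202 miRNA genes counted in the series. Small RNA was sequenced from male mice aged 14 days, from tissue labelled as layer of hippocampus, with no treatment named in the labels. The animals were B6CASTF1/J, hybrids that carry 1 genome of C57BL/6J and 1 of CAST/EiJ. There was 1 group with 2 biological replicates, each label naming 3 males by number. Both labels share 1 donor identifier, and part of the spread between the libraries may therefore be technical. As there was no other condition, members were compared with each other and with other miRNA genes, and replicate 1 with replicate 2.

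A miRNA is cut from the stem of a hairpin transcript, and either arm of the stem (5p or 3p) can yield a mature strand. The strand pairs with messenger RNAs mainly through its seed, bases 2 to 8 from the 5′ end, and lowers their translation and stability. In mouse brain, miR-135 is known for lowering the serotonin transporter Slc6a4 and the receptor Htr1a in serotonergic neurons. In cultured rodent hippocampal neurons it is known for acting on complexins during the spine shrinkage of long-term depression, and in mouse neurons for promoting axon growth through the transcription factor Klf4.

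The mature strands are shown first because the sequences set which reads could be assigned to which gene. They were read from RefSeq's table on GRCm38.p6, which held hairpins of all 3 members, and seeds are in capitals. The 5p strand is the same for both Mir135a genes, while each gene has a 3p strand of its own. miR-135b-5p, the 5p strand of Mir135b, had no entry in RefSeq's table, so its sequence and seed are not given here.

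miR-135a-5p (Mir135a-1, chr9:106154140-106154162, + strand, and Mir135a-2, chr10:92072141-92072163, - strand): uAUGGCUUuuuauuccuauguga

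miR-135a-1-3p (chr9:106154179-106154200, + strand): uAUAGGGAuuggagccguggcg

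miR-135a-2-3p (chr10:92072104-92072124, - strand): uGUAGGGAuggaagccaugaa

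miR-135b-3p (chr1:132198142-132198163, + strand): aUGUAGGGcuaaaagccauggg

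Among the 1679 mature names of that table, none shared a seed with any of the 3p strands of the family. The 3p seeds of Mir135a-2 and Mir135b had 6 letters in a row in common, shifted by 1 base, as did those of Mir135a-1 and Mir135a-2 without a shift. Over their length the 3p strands were 65.2% to 72.7% identical in pairwise alignment, and the whole hairpins 61.5% to 67.0%.

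The hairpin of Mir135a-2 (chr10:92072086-92072185, - strand, 100 nt) is given with its mature strands in capitals, to show where the arms lie: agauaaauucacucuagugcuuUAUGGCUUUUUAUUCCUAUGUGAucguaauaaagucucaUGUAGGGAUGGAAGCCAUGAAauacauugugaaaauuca

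The counts were made per hairpin gene and reads mapping to several places were given to no gene, so the arms were not separated. Mir135a-1 and Mir135a-2 had a run of 24 nt in common, uauggcuuuuuauuccuaugugau, which holds the whole of miR-135a-5p and 1 base more. A read of miR-135a-5p that stayed within this run therefore matched both loci equally well. Of the windows of 20 nt that tile each hairpin, 5 of 71 in Mir135a-1 and 5 of 81 in Mir135a-2 occurred in the other gene, all of them within that run. Mir135b had no such window among its 78, and its longest run in common with any other miRNA gene was 14 nt. Allowing 1 mismatch, an alternative added after the values were seen, gave 9 windows in Mir135a-1, 9 in Mir135a-2 and 7 in Mir135b, all matched within the family. The levels of the Mir135a genes are thus levels of reads that could be placed at 1 locus, and not of miR-135a-5p. The libraries held 3629983 (replicate 1) and 2714981 (replicate 2) multimapping reads, which were 26.3% and 37.5% of all their reads. How many of the multimapping reads were miR-135a-5p was not analysed here.

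**Figure D1:**
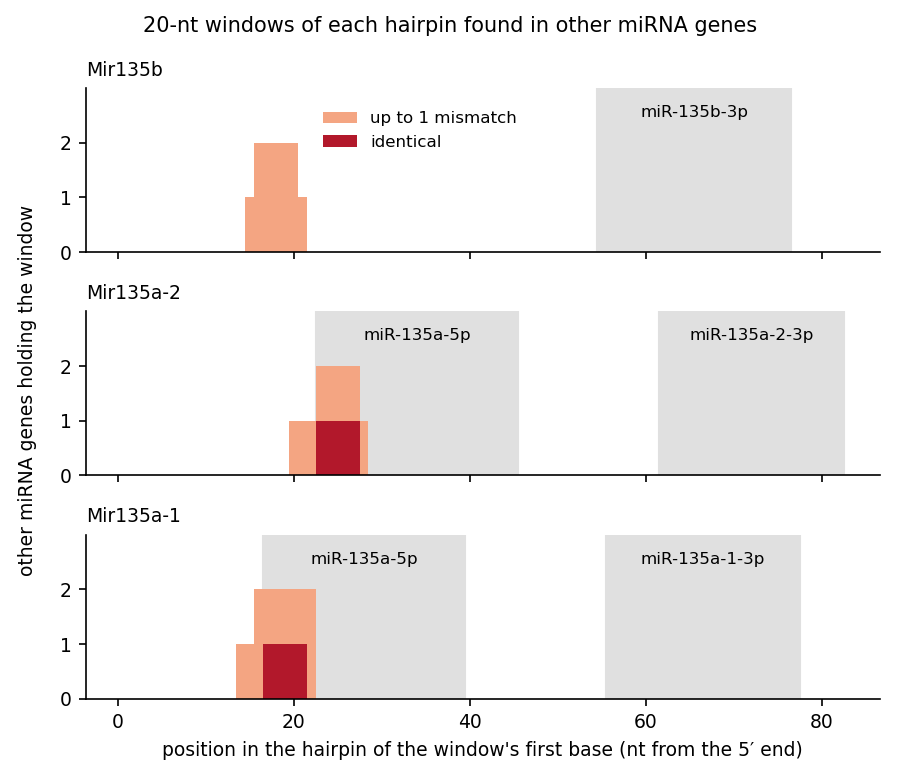
Windows of 20 nt along each hairpin, by the position of the window's first base (x axis, nt from the 5′ end), with the number of other miRNA genes that hold the window (y axis), either identical or with up to 1 mismatch. Grey bands are the mature strands listed in RefSeq's table. Identical windows occur at 5 positions in each Mir135a gene and at 0 in Mir135b.

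In mm10, Mir135b (ENSMUSG00000065435.1) lies at chr1:132198088-132198184 on the + strand, in an intron of the protein-coding gene Lemd1 and of the overlapping gene AC124108.1, both on the same strand. Mir135a-2 (ENSMUSG00000065524.1) lies in an intron of the long non-coding RNA Rmst on the same strand, a transcript known for neural differentiation. Mir135a-1 (ENSMUSG00000065407.1) lies at chr9:106154124-106154213 on the + strand, in an intron of the non-coding D030055H07Rik, and overlaps an exon annotated as UTR of Glyctk on the opposite strand. Host transcripts were not measured in these libraries. No member had a count on the opposite strand in either library, and the column that ignored strand held the same counts for all 3 genes.

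All 3 members were detected, at 2 or more counts per 1000000 counts on miRNA genes (CPM) in each library, where 426 of all 2202 genes (19.3%) were. Mir135b was highest, Mir135a-2 next and Mir135a-1 lowest in both libraries. The whole family took 886 counts of placed reads in replicate 1 and 425 in replicate 2. These are 0.0234% and 0.0166% of the 3793934 and 2554997 counts on miRNA genes, and leave out reads matching both Mir135a loci. The family's summed level was 234 CPM in replicate 1 (95% exact interval 218 to 249) and 166 CPM in replicate 2 (151 to 183). The mean was 199.9 ± 47.5 CPM (SD, n = 2). These intervals hold for counting error alone, because PCR copies were not told apart by molecular identifiers.

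Mir135b had 616 counts in replicate 1, or 162 CPM (95% exact interval 149.8 to 176), and 205 counts in replicate 2, or 80.2 CPM (69.6 to 92.0). Its mean level was 121 ± 58.1 CPM (SD, n = 2), rank 196 of all genes. The counting intervals of the libraries did not overlap. Mir135a-2 had 185 counts in replicate 1, or 48.8 CPM (42.0 to 56.3), and 159 counts in replicate 2, or 62.2 CPM (52.9 to 72.7). Its mean level was 55.5 ± 9.52 CPM (SD, n = 2), rank 236, and here the intervals overlapped.

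Mir135a-1 was the lowest and the most even of the members. It had 85 counts in replicate 1, or 22.4 CPM (17.9 to 27.7), and 61 counts in replicate 2, or 23.9 CPM (18.3 to 30.7). Its mean level was 23.1 ± 1.04 CPM (SD, n = 2), rank 279. The coefficient of variation between the libraries was 47.9% for Mir135b, 17.2% for Mir135a-2 and 4.49% for Mir135a-1. Among the mean levels of detected genes, whose median was 88.3 CPM, Mir135b lay above the median and both Mir135a genes below it. By library the median of detected genes was 84.7 CPM in replicate 1 and 84.5 CPM in replicate 2, so that Mir135b lay above it in replicate 1 and below it in replicate 2, and both Mir135a genes below it in both.

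**Figure D2:**
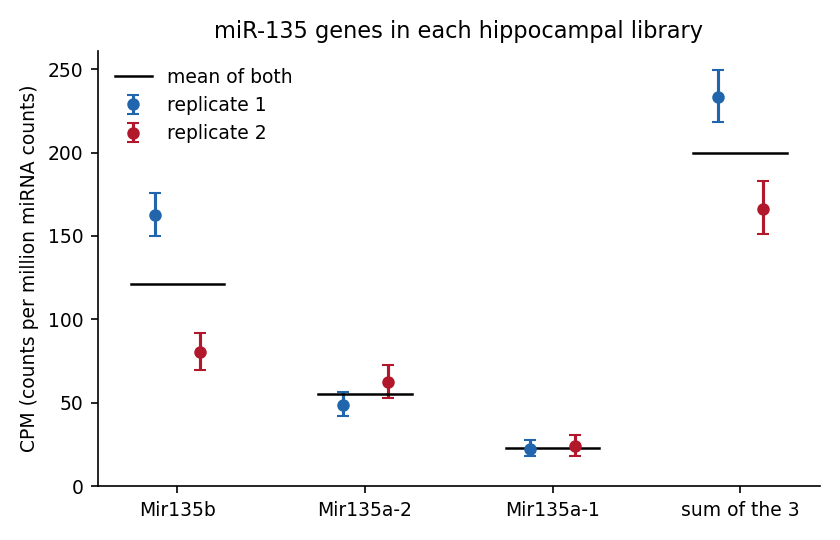
Level of each member and of their sum (x axis) in CPM (y axis) for replicate 1 and replicate 2, with 95% exact counting intervals and the mean of both libraries as a line. Mir135b is at 162 and 80.2 CPM in replicates 1 and 2, while Mir135a-2 stays between 48.8 and 62.2 CPM and Mir135a-1 between 22.4 and 23.9 CPM.

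**Figure D3:**
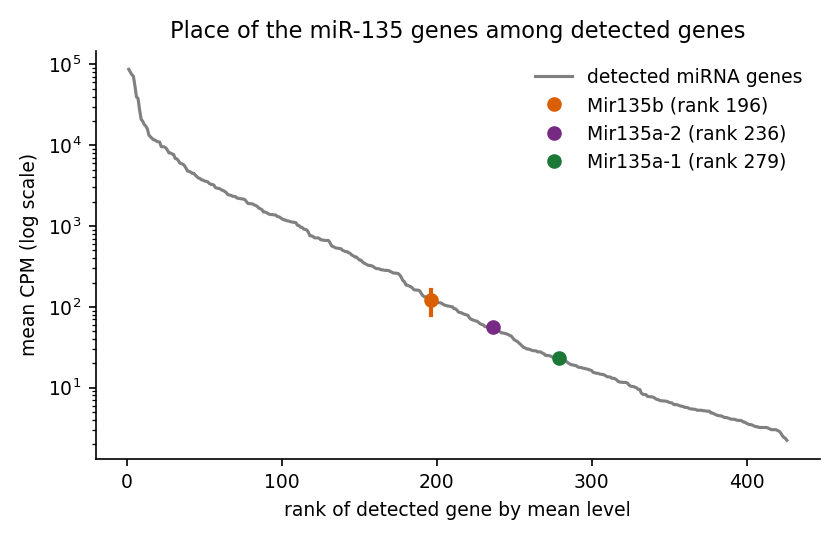
Mean CPM (y axis, log scale) of the 426 detected genes by rank (x axis), with the members as points and, as a vertical line through each, the range of its 2 libraries. Mir135b is at rank 196, Mir135a-2 at 236 and Mir135a-1 at 279.

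The order of the members was tested within each library by a two-sided exact binomial test of the counts of a pair, adjusted over 6 tests (Benjamini-Hochberg). The counts of Mir135b were 3.33 times those of Mir135a-2 in replicate 1 (95% exact interval 2.82 to 3.95, adjusted p = 2.15e-54). In replicate 2 the ratio was 1.29 (1.04 to 1.60, adjusted p = 0.0182). Those of Mir135a-2 were 2.18 times those of Mir135a-1 in replicate 1 (1.67 to 2.85, exact binomial adjusted p = 1.32e-09) and 2.61 times in replicate 2 (1.93 to 3.56, adjusted p = 4.36e-11). All 6 tests passed, and they compare placed reads within a library. Across libraries, the lowest value of Mir135b (80.2 CPM) lay above the highest of Mir135a-2 (62.2 CPM), and the lowest of Mir135a-2 (48.8 CPM) above the highest of Mir135a-1 (23.9 CPM).

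Mir135b made up a larger part of the family's counts in replicate 1 than in replicate 2. Its share was 69.5% in replicate 1 (95% exact interval 66.4 to 72.5) and 48.2% in replicate 2 (43.4 to 53.1). Mir135a-2 took 20.9% (18.2 to 23.7) and 37.4% (32.8 to 42.2) in replicates 1 and 2. Mir135a-1 took 9.59% (7.73 to 11.7) and 14.4% (11.2 to 18.1). The mean shares were 58.9% ± 15.1 for Mir135b, 29.1% ± 11.7 for Mir135a-2 and 11.97% ± 3.37 for Mir135a-1 (SD, n = 2). All these shares are of placed reads and leave out reads of miR-135a-5p that match both Mir135a loci.

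Fisher's exact test (two-sided, adjusted over 3 pairs) set the counts of each pair of members against the library, so that a change of the total cancels. The ratio of Mir135b to Mir135a-2 was higher in replicate 1, with an odds ratio of 2.58 (95% interval 1.96 to 3.39, Fisher's exact adjusted p = 8.32e-12). That of Mir135b to Mir135a-1 was also higher in replicate 1, at 2.15 (1.47 to 3.15, Fisher's exact adjusted p = 7.75e-05). The ratio of Mir135a-2 to Mir135a-1 did not pass, at 0.835 (0.553 to 1.26, Fisher's exact adjusted p = 0.374), an interval that leaves room for a difference in either direction. Among placed reads, the ratios of Mir135b to each Mir135a gene thus differed between the libraries beyond counting error. Such ratios do not tell which gene of a pair changed.

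**Figure D4:**
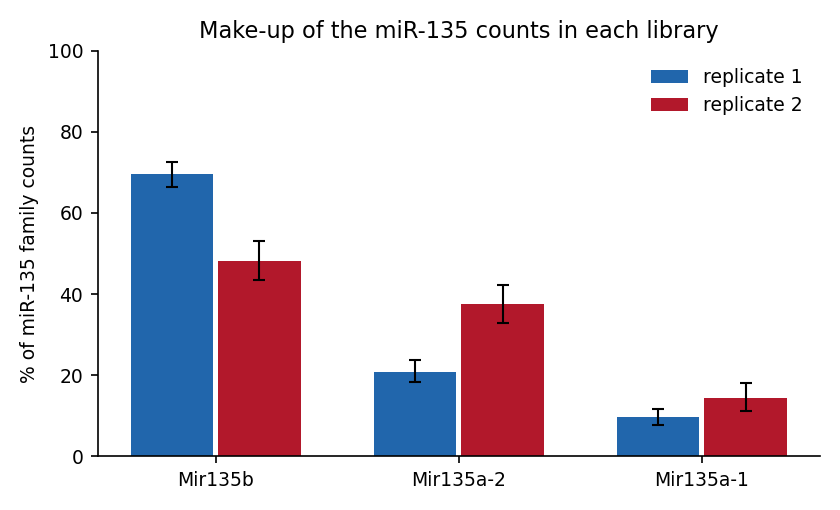
Share of the family's counts of placed reads (y axis, %) from each member (x axis) in replicate 1 and replicate 2, with 95% exact counting intervals. Mir135b holds 69.5% in replicate 1 and 48.2% in replicate 2, and both Mir135a genes hold smaller shares in replicate 1.

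Each gene was then compared between the libraries by an exact binomial test (two-sided) that took the library totals as given, adjusted over the 507 genes whose counts summed to 10 or more. This test too covers counting error and compares libraries, not conditions. It called 264 genes (52.1%), 128 of them higher in replicate 1 (25.2%) and 136 higher in replicate 2 (26.8%). Of the members, 1 of 3 was called, which is read against that background and is no result about the family. Mir135b was 2.02-fold higher in replicate 1 (95% exact interval 1.73 to 2.38, adjusted p = 1.78e-19).

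Mir135a-2 was at 0.784 of its replicate 2 level in replicate 1 (0.630 to 0.975) and did not pass (exact binomial adjusted p = 0.0528). It passed with DESeq2 size factors (adjusted p = 0.0407) and in the column that ignored strand (adjusted p = 0.0475). The filter on low counts moved it too, to an exact binomial adjusted p of 0.0390 over genes with 50 or more counts in sum and of 0.0778 with no filter, settings read for single members after the values were seen. With all reads as the denominator its adjusted p in the exact test was 1.66e-05, and with TMM-scaled totals it was 0.0780. Mir135a-1 was at 0.938 (0.667 to 1.33, exact binomial adjusted p = 0.815). When a negative binomial exact test took its spread from edgeR's common dispersion (a coefficient of variation of 0.378, estimated from these same libraries), 2 of the 507 genes (0.394%) and 0 of the 3 members were called. The unadjusted p in that exact test was 0.206 for Mir135b, 0.668 for Mir135a-2 and 0.942 for Mir135a-1. The difference of Mir135b was thus larger than counting error. The common dispersion came from the differences between these same 2 libraries. The negative binomial test therefore cannot decide whether Mir135b differed by more than the spread of replicates.

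On the log2(CPM + 0.5) scale the ratio of replicate 1 over replicate 2 was 1.01 for Mir135b, -0.35 for Mir135a-2 and -0.09 for Mir135a-1. For scale, the 328 genes that averaged at least 10 CPM had a median size of this log2 ratio of 0.42, and 47 of them differed by over 2-fold. By size of the log2 ratio among these 328 genes, Mir135b ranked 45, Mir135a-2 ranked 192 and Mir135a-1 ranked 285.

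**Figure D5:**
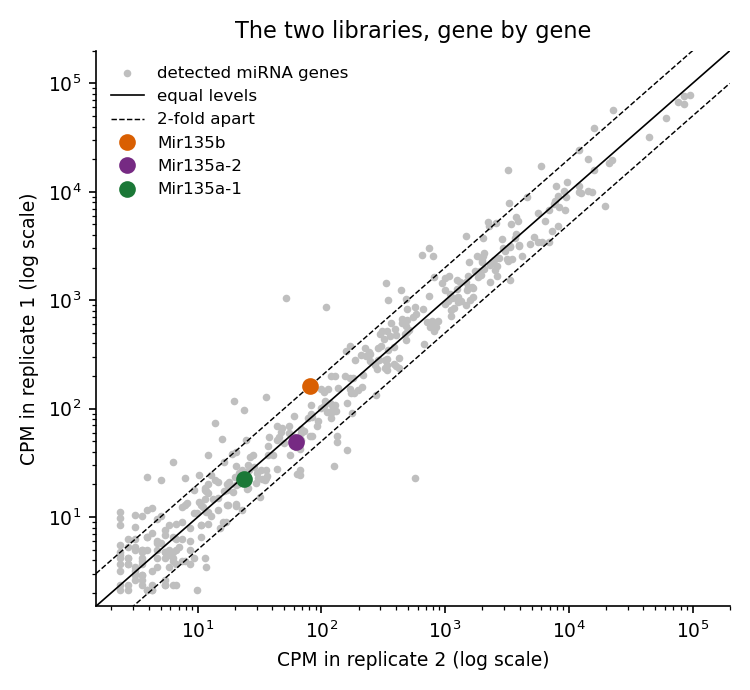
CPM in replicate 1 (y axis) against replicate 2 (x axis), both on log scales, for the 426 detected genes in grey and the members in colour, with lines of equal level and of 2-fold difference. Mir135b lies on the upper 2-fold line and the Mir135a genes near the line of equal level.

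Summed levels of several marker lists also differed between the libraries, and the calls in each are to be read beside the 25.2% of all tested genes called higher in replicate 1 and the 26.8% called higher in replicate 2. The oligodendrocyte list (Mir219a-1, Mir219a-2, Mir338) summed to 4060 CPM in replicate 1 and 1247 CPM in replicate 2, with 2 of 3 members called higher in replicate 1. The astrocyte list (Mir21a, Mir31, Mir29a, Mir29b-1) summed to 3808 and 1652 CPM in replicates 1 and 2, with 3 of 4 called higher in replicate 1. Mir21a (1451 and 333 CPM in replicates 1 and 2) and Mir31 (1037 and 52.1 CPM) differed most. Mir29a was not called, at 1282 and 1254 CPM. The choroid plexus and ciliated cell list summed to 1980 and 931 CPM in replicates 1 and 2. Of its 7 genes, 4 were tested and 3 called higher in replicate 1, and Mir449b had 0 counts in both libraries. Mir34c differed most of those tested, at 857 CPM in replicate 1 and 109 CPM in replicate 2. The neuron list summed to 46739 CPM in replicate 1 and 34774 CPM in replicate 2, with 2 of 8 tested called higher in replicate 1 and 5 higher in replicate 2. Those 2 made up most of the sum: Mir149 with 20240 and 14223 CPM in replicates 1 and 2, and Mir132 with 17266 and 5947 CPM. The 8 tested neuron markers had a median log2 ratio of replicate 1 over replicate 2 of -0.58, opposite in direction to the sum. Erythroid markers summed to 75.4 CPM in replicate 1 and 192 CPM in replicate 2, with 1 of 3 called higher in replicate 1 and the other two in replicate 2. Mir451a made up most of that sum, at 41.9 CPM in replicate 1 and 162 CPM in replicate 2, while Mir486 went the other way, at 24.5 and 12.9 CPM in replicates 1 and 2. The endothelial and mural list summed to 14332 and 11076 CPM in replicates 1 and 2, the microglia list to 1781 and 1696 CPM and the epithelial list to 109 and 104 CPM. Unmapped reads were 41.3% of replicate 1 and 20.7% of replicate 2. The part of any of these in the level of Mir135b was not tested, and in bulk tissue fewer cells of a type and less RNA per cell cannot be told apart.

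As a check of the labelled tissue, 7 of the 11 neuron markers were detected, where 19.3% of all genes were. Other lists were detected as well, at 3 of 3 oligodendrocyte, 4 of 4 astrocyte, 5 of 5 microglia and 3 of 3 endothelial and mural markers. The same held for 3 of 3 erythroid, 4 of 7 choroid plexus and ciliated cell and 4 of 7 epithelial markers. Detection alone thus did not single out neurons, and the levels of the neuron markers were uneven. The highest were Mir149 with 17231 ± 4255 CPM, then Mir132 with 11607 ± 8004 CPM, then Mir128-1 with 5824 ± 2065 CPM (SD, n = 2 each). Mir9-3 had 70.2 ± 20.3 CPM and Mir9-1 17.1 ± 7.85 CPM (SD, n = 2 each), and Mir9-2 was not detected. The Mir124a genes, which give the classical neuronal miR-124, had no more than 12 counts each. Their hairpins have runs of 32 nt in common, so their reads are subject to the same limit as those of miR-135a-5p.

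The miRNA gene nearest to Mir135a-1 was Mirlet7g, 24.6 kb away on the same strand, a let-7 gene of the family that rises as cells differentiate. It was the only miRNA gene within 50 kb of any member. Mirlet7g stood at 31776 CPM in replicate 1 and 44286 CPM in replicate 2, so that its counts were 1418 and 1855 times those of Mir135a-1. For this pair, nearness on the chromosome did not come with a similar level of placed reads in either library. Counts of both Mir135a genes leave out reads of miR-135a-5p that match both loci. Mir1251, named here after its values were seen because it lies within Rmst as Mir135a-2 does, is 64.96 kb from it on the same strand. It had 15 counts in replicate 1 and 19 in replicate 2, 0.0811 and 0.119 of the counts of Mir135a-2. It was called detected too, at 3.95 and 7.44 CPM. No other annotated miRNA gene came closer than 699 kb to Mir135b, and the nearest on each side, Gm24273 and Gm44300, had 0 counts in both libraries.

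The genes most like each member in level were found by distance of log2(CPM + 0.5) over the 2 libraries, which describes level and ratio and says nothing of function. Nearest to Mir135b was Mir340 (distance 0.07), with 155 CPM in replicate 1 and 79.1 CPM in replicate 2, in both libraries close to Mir135b. Mir873a (0.33) and Mir218-2 (0.42) followed. Mir218-2, which derives from a Slit gene and is expressed in motor and other neurons, had 144 and 105 CPM in replicates 1 and 2. Nearest to Mir135a-2 were Mir7-1 (0.11), Mir504 (0.15) and Mir16-2 (0.15). Mir16-2 gives miR-16, which like miR-135 is known in mouse for lowering the serotonin transporter. It had 51.1 CPM in replicate 1 and 68.5 CPM in replicate 2. This is the level of 1 gene and not of miR-16, as Mir16-1 had 358 ± 88.4 CPM (SD, n = 2). Nearest to Mir135a-1 were Mir3070b (0.05), Mir8114 (0.10) and Mir592 (0.14), at means of 23.7, 22.4 and 23.8 CPM.

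Other brain miRNAs with more than 1 locus offer the closest comparison for the placing of reads. In a list of 14 such genes (miR-124, miR-9, miR-128, miR-138, miR-218 and miR-129), every one had a run in common with another gene, from 22 to 33 nt long. Mir138-1 and Mir138-2, of a miRNA known in rat neurons to restrain spine growth, have a run of 24 nt in common, as long as that of the Mir135a pair. They had 4260 ± 1173 and 1887 ± 24.4 CPM (SD, n = 2), against 55.5 ± 9.52 CPM for Mir135a-2 and 23.1 ± 1.04 CPM for Mir135a-1. The Mir218 pair, with a run of 22 nt, was nearer, at 124 ± 27.4 CPM for Mir218-2 and 20.1 ± 0.413 CPM for Mir218-1. The Mir128 pair, with a run of 23 nt, had 5824 ± 2065 and 1902 ± 596 CPM. Genes of the list with runs of 22 to 24 nt in common lay from 20.1 to 5824 CPM. Those with runs of 26 to 33 nt lay from 0.783 CPM (Mir124a-3) to 1375 CPM (Mir129-2). The part of shared runs in any of these levels was not tested. Of the 14 genes, 10 were detected, where 19.3% of all genes were, and the median of the mean levels of the 14 was 97.2 CPM.

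A list of 27 miRNA genes tied by earlier work to dendritic spines, synaptic plasticity or the serotonin pathway had 23 members detected, where 19.3% of all genes were. The median of its mean levels was 358 CPM, against 88.3 CPM over detected genes. Over all 2202 genes the median was 0 CPM, as 1444 had no count in either library. The list was chosen with earlier results of these data known, so its level is a description only. In level of placed reads, which leaves out miR-135a-5p reads that match both Mir135a loci, each miR-135 gene lay below that list's median. Its highest members were Mir132, which is induced by neuronal activity, at 11607 ± 8004 CPM, Mir138-1 at 4260 ± 1173 CPM, and Mir137, which limits dendrite growth, at 4100 ± 1110 CPM (SD, n = 2 each). Of 24 tested members 8 were called higher in replicate 1 and 9 higher in replicate 2, where 25.2% and 26.8% of all tested genes were called in these directions. The tested members had a median log2 ratio of 0.04 beside 0.02 over all tested genes. Mir132 was 2.90-fold higher in replicate 1. Larger differences were those of Mir26a-1 (6.06-fold higher in replicate 1), Mir219a-2 (4.06-fold) and Mir29b-1 (3.08-fold). Mir134, which acts on Limk1 in spines of rat neurons and is named outside the naming rule, was in replicate 1 at 0.737 of its replicate 2 level.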

How the data were processed

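The authors deposited 1 table of raw read counts per miRNA gene for each library. Per the text files beside them, the build was mm10 and the annotation GENCODE M21. The aligner, counter and trimming were not given in the sources used here. Of 3 count columns (strand ignored, strand of the gene, opposite strand), the second was used, as the larger stranded total. The 4 rows of unassigned reads (72.5% of reads in replicate 1 and 64.7% in replicate 2) stayed out of totals and tests.

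CPM are counts per 1000000 counts on miRNA genes. As each read covers a mature miRNA, levels were compared without dividing by hairpin length, and dividing by it was an alternative. A count was worth 0.264 CPM in replicate 1 and 0.391 CPM in replicate 2. Exact intervals are Clopper-Pearson. Calls used a threshold of 0.05 after Benjamini-Hochberg adjustment over all genes tested. With 1 library on each side edgeR's quasi-likelihood test has no residual degrees of freedom, so exact tests were used, whose p-values measure counting error only. The script was tested on simulated data. Windows of 20 nt were searched on both strands in the hairpins of all 2202 genes in GENCODE transcripts, not in the genome. The text names the members, the 3 genes nearest in level to each, miRNA genes within 50 kb and the leading genes of the lists. Some other list members, such as Mir134, are named outside this rule. The members and lists were chosen with earlier results of these data known. Alternatives were other scalings, denominators, pseudocounts, count filters, detection minimums, window lengths, the column that ignores strand and each library alone. Tools were R 4.3.3 with edgeR 4.0.16 and DESeq2 1.42.0, and Python 3.11.15 with scipy 1.17.1, pandas 2.3.3, Biopython 1.88, numpy 2.4.6 and matplotlib 3.10.9.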

Additional observations from a re-analysis of the deposited data

How the results depend on the processing

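Of 96 recomputed values, 83 kept their direction and side of the threshold or moved by less than the spread, and 0 turned round. Part of the 83 could not have come out otherwise. With 2 libraries, leaving 1 out always shifts a mean by less than the SD. The pseudocount does not enter the exact test, and the family's shares use counts that stay the same with strand ignored. The number of detected genes had no spread to be judged by. It was 500 at a minimum of 1 CPM and 315 at 10 CPM, against 426. With all reads as the denominator the summed level of the family fell to 61.5 per 1000000 reads, and its log2 ratio of replicate 1 over replicate 2 was 0.13, against 0.49 over miRNA counts. More reads of replicate 1 were unmapped, and that denominator counts them. With the negative binomial spread 2 genes were called between the libraries, against 264 with counting error alone, and Mir135b lost its call (adjusted p = 1 in that exact test). Mir135a-2 gained a call with 4 alternatives, as given above. The other changed values were levels of single members with all reads as the denominator, the level of Mir135a-1 in the column that ignored strand (24.6 CPM), and the windows of Mir135b with 1 mismatch (8.97%). From a single library, the family stood at 166 CPM without replicate 1 and at 234 CPM without replicate 2. The order of the members kept its direction and calls in all 6 tests when counts were divided by hairpin length. Depth limits Mir135a-1 most, whose 85 and 61 counts leave its ratio between 0.667 and 1.33. With 1 group, no comparison of conditions and no paired analysis could be made.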
